A study of Mus musculus with 6 samples.

Results

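The enzymes described here write or erase methyl groups on histone H3 in mouse embryonic stem cells: the H3K4 methyltransferase genes Kmt2a, Kmt2b, Kmt2c, Kmt2d, Setd1a and Setd1b, the H3K27 demethylase genes Kdm6a and Kdm6b, and the H3K4 demethylase genes Kdm5a and Kdm5b. They were chosen by name, as enzymes that oppose Polycomb repressive complex 2 (PRC2) or help to set bivalent chromatin, and matched by Ensembl identifier. Of the 10 genes, 9 were found among the 22933 rows of the deposited table, and Setd1b was not analysed here. The study sequenced total RNA, depleted of ribosomal RNA, from such cells with floxed Ezh2 alleles (Ezh2 fl/fl). One group of 3 libraries came from cells given 4-hydroxytamoxifen at 800 nM for 96 hours to delete Ezh2, with RNA taken 4 days after treatment and the genotype labelled Ezh2 KO. The other 3 libraries came from the same floxed cells without tamoxifen, labelled Ezh2 wild type. All cells grew on gelatin in medium with serum, serum replacement and leukaemia inhibitory factor. No group without floxed alleles and no tamoxifen-treated group without them was among the samples used, so effects of the drug and of the deletion cannot be told apart. The Cre driver and the number of clones or cultures behind the libraries are not given in the labels, so p-values measure the spread between these libraries, which may be technical.

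PRC2 places methyl groups on lysine 27 of histone H3, a mark of silent developmental genes, through its catalytic subunit EZH2 or its relative EZH1. KDM6A (UTX) and KDM6B (JMJD3) remove that mark, and the KMT2 and SETD1 enzymes methylate lysine 4, a mark of promoters and enhancers. KDM5A and KDM5B remove methyl groups from lysine 4. In embryonic stem cells many developmental promoters carry both marks, a state called bivalent, and KMT2B is known as the main H3K4 methyltransferase at these promoters. KMT2C and KMT2D act mostly at enhancers, in complexes that also contain KDM6A.

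The promoters of 6 of the 10 genes were in a RefSeq table (GRCm38.p6) of windows from 250 bases before to 50 bases after the transcription start. Shown are those of Kdm5b, the gene with the highest level per length, and of Kdm6a and Setd1a, the members whose groups did not overlap. Capitals mark CpG dinucleotides, the letters CG, which read the same on both strands and which the CXXC domains of KMT2A and KMT2B bind when unmethylated.
Kdm5b, chr1:134559928-134560227, plus strand: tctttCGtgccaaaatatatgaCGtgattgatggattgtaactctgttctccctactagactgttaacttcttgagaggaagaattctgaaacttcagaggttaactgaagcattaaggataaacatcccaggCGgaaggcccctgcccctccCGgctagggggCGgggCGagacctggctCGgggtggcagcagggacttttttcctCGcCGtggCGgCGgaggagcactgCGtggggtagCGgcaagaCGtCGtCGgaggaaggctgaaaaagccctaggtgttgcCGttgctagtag
Kdm6a, chrX:18162325-18162624, plus strand: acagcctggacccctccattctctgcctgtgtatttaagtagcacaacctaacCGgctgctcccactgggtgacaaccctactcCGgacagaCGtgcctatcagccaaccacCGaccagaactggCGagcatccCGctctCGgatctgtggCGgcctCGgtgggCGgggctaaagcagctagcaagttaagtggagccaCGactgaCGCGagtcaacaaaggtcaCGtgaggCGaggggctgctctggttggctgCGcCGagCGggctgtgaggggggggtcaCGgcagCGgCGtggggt
Setd1a, chr7:127777139-127777438, plus strand: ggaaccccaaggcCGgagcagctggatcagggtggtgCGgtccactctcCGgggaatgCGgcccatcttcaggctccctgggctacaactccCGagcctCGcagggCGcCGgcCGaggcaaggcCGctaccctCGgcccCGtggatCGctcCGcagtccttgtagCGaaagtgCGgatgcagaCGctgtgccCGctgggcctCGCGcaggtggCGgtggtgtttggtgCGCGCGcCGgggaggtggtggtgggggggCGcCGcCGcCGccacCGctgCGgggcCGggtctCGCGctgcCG
The windows held 17 CpGs at Kdm5b, 21 at Kdm6a and 35 at Setd1a. At least as many were found in 31.4%, 24.8% and 6.95% of all 32851 promoter windows of the same length, whose median was 7. Over the 6 matched genes the count ran from 17 at Kdm5b to 56 at Kmt2c. The letters CACGTG, an E-box searched on both strands, which read alike, were in the Kdm6a window only among these 6, and in 7.15% of all windows. These sequences describe the genes; neither methylation nor binding was measured in the data used here.

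Values are given on the authors' normalized scale. Each deposited value above 0 was also solved for a whole number, taken here as the reads behind it and called recovered reads. These totalled 2334438 to 5110226 in the tamoxifen libraries and 2678202 to 5689666 in the untreated libraries. Ezh2 itself averaged 2475 ± 190 in tamoxifen and 3756 ± 361 in untreated libraries (SD, n = 3 each), or 65.9% of the untreated mean, and was not called (limma adjusted p 0.195). Its log2 fold change was -0.60 on this scale, -0.40 on recovered reads scaled by their median ratio, -0.42 on reads with GC and length trends removed and -0.13 on CPM of reads, where the groups overlapped. The stem cell markers Pou5f1, Sox2, Nanog, Zfp42, Klf4, Esrrb and Dppa5a were all present in every library and summed to values of 59178 to 63712 in tamoxifen and 53879 to 77731 in untreated libraries, with 3 of 7 higher and 0 called. The members differed, with Nanog at 148% and Zfp42 at 83.3% of the untreated mean, both with groups apart on the deposited scale and overlapping on CPM. On the deposited scale 15.3% of all genes had groups apart, and 0.195% were called. Primitive endoderm markers (5 of 5 higher, 0 called) summed to 2303 to 2507 in tamoxifen and 733 to 1234 in untreated libraries. All 5 had tamoxifen above untreated without overlap on the deposited scale, as at 7.92% of all genes. They also lay apart on CPM, where the share of all genes apart was not counted. On CPM 12795 of 17427 genes had fold changes above 0. The log2 fold changes on deposited values were 1.43 for Gata4, 1.24 for Gata6, 3.38 for Sox17, 0.62 for Sox7 and 1.33 for Dab2. Sox17 rested on 1 to 48 reads per library and Sox7 on 3 to 21. Trophoblast markers (3 of 3 tested higher, 0 called) summed to 477 to 709 in tamoxifen and 0.885 to 179 in untreated libraries. Of these, Hand1 was called on CPM of recovered reads (log2 fold change 3.65, limma adjusted p 0.0388), where 0.0344% of all genes were called. It was not called on deposited values (limma adjusted p 0.0849), on reads scaled by their median ratio (0.140) or with GC and length trends removed (0.0677). It had 6, 8 and 10 reads in tamoxifen and 0, 1 and 0 in untreated libraries. Its values of 413, 606 and 425 made up most of the trophoblast sums in tamoxifen. Cdx2 had 0 to 3 reads per library and Gata3 had 1 to 11, both with overlapping groups on the deposited scale. Elf5 had at most 1 read and was not tested. The 4 fibroblast markers (3 higher, 0 called) summed to 615 to 1115 in tamoxifen and 486 to 834 in untreated libraries. Postn had 1, 2 and 2 reads in the tamoxifen libraries and 0 in every untreated one. The part of these cell types in the results below was not tested, and in bulk RNA fewer cells of a type and less RNA per cell cannot be told apart.

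None of the 9 measured enzyme genes changed past the threshold after tamoxifen. By limma on log2(value + 1), with Benjamini-Hochberg adjustment over 17427 genes, 0 of 9 were called at an adjusted p under 0.05, against 0.195% of all genes tested (0.126% higher and 0.0689% lower). At an unadjusted p under 0.05 there was 1 of 9, Kdm6a, against 9.34% of all genes. On the deposited scale 5 genes (Kmt2b, Kmt2c, Kmt2d, Setd1a and Kdm6b) had fold changes above 0 and 4 (Kmt2a, Kdm6a, Kdm5a and Kdm5b) below 0, though Kmt2a, Kmt2d, Kdm6a and Kdm5a changed sign on another scale given below. The median log2 fold change of the 9 was 0.09, beside -0.00375 for all genes tested. It was 0.02 on reads scaled by their median ratio (5 above 0 and 4 below), -0.14 on reads with GC and length trends removed (4 and 5) and 0.29 on plain CPM (8 and 1), beside -0.01, -0.03 and 0.25 for all genes. The groups did not overlap at 2 of the 9 genes, against 15.3% of all genes. Tamoxifen lay above at Setd1a, as at 7.92% of all genes, and below at Kdm6a, as at 7.33%. The 95% interval lay within 1 log2 unit of 0, that is within a 2-fold change, for 5 genes (Kmt2a, Kmt2c, Kmt2d, Setd1a and Kdm6a), against 49.3% of all genes. Fold changes are tamoxifen minus untreated.

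**Figure D1:**
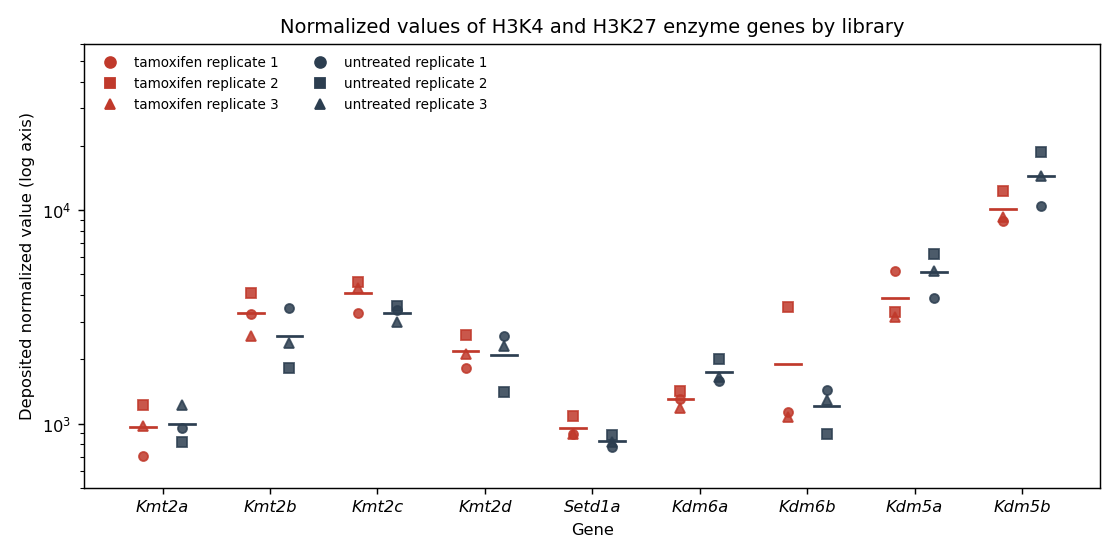
Deposited normalized values (log axis) of the 9 measured enzyme genes in each library, tamoxifen (red) left of untreated (dark), with a symbol per replicate and a bar at the group mean. The groups lie apart at Setd1a and Kdm6a, and at Kdm6b tamoxifen replicate 2 (3511) lies above the other 5 libraries.

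The H3K4 methyltransferases were read first. Kmt2a (MLL1), known for keeping Hox genes active, spans 44803355 to 44881296 of chromosome 9 (GRCm38, minus strand). Its normalized value was 701, 1226 and 974 in tamoxifen replicates 1 to 3, against 954, 818 and 1216 in the untreated ones. Both groups spanned nearly the same range, and the tamoxifen libraries held both the lowest and the highest value. Its log2 fold change was -0.06 (95% interval -0.67 to 0.55), with values above 0 without tamoxifen replicate 1 (0.15) or untreated replicate 3 (0.09) and on recovered reads scaled by their median ratio (0.021).

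Kmt2b (MLL2), the paralogue of Kmt2a, lies on chromosome 7 from 30568858 to 30588726. It had 3249, 4086 and 2569 in tamoxifen and 3483, 1829 and 2372 in untreated libraries. The highest value was a tamoxifen library and the lowest an untreated one, but untreated replicate 1 lay above tamoxifen replicates 1 and 3. The mean was 3301 ± 760 after tamoxifen and 2561 ± 843 without it (SD, n = 3 each), a log2 fold change of 0.39 (interval -0.28 to 1.06, limma adjusted p 0.727). A 2-fold rise was therefore not outside the interval at this spread.

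Kmt2c (MLL3) and Kmt2d (MLL4) encode the methyltransferases of enhancers. Kmt2c (chromosome 5, 25271798 to 25498783) had 3309, 4613 and 4302 in tamoxifen and 3406, 3542 and 2976 in untreated libraries. Only tamoxifen replicate 1 lay inside the untreated range. It stood at 0.29 on the log2 scale (interval -0.09 to 0.67, limma adjusted p 0.621). Kmt2d (chromosome 15, 98831669 to 98871204) had 1829, 2607 and 2122 in tamoxifen and 2559, 1401 and 2314 in untreated libraries. The groups overlapped almost fully, and the log2 fold change of 0.09 was below 0 without tamoxifen replicate 2 (-0.04) or untreated replicate 2 (-0.17) and on recovered reads scaled by their median ratio (-0.10).

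Setd1a encodes a methyltransferase that contributes to the bulk of H3K4 trimethylation. The gene lies on chromosome 7 from 127776670 to 127800122 in GENCODE. Its RefSeq promoter window, printed above, lies inside this span, so the RefSeq transcription start used there is downstream of the GENCODE gene start. It had 895, 1080 and 896 in tamoxifen and 779, 886 and 817 in untreated libraries. Every tamoxifen value lay above every untreated one, with tamoxifen replicate 1 and untreated replicate 2 lying next to each other. The mean was 957 ± 107 after tamoxifen and 827 ± 54.4 without it (SD, n = 3 each). The difference was 0.21 on the log2 scale (interval -0.12 to 0.54, limma adjusted p 0.705). The exact permutation p (two-sided) was 0.1, and 3 against 3 libraries can give none smaller. On CPM of recovered reads the groups overlapped.

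On the deposited scale Kdm6a lay below 0 and Kdm6b above 0, without a call, while on plain CPM both lay above 0. Kdm6a (chromosome X, 18162575 to 18279936) had 1304, 1421 and 1188 in tamoxifen and 1587, 2005 and 1653 in untreated libraries, with no overlap. The mean was 1304 ± 117 after tamoxifen and 1748 ± 225 without it (SD, n = 3 each), or 74.6% of the untreated mean. The log2 fold change of -0.42 (interval -0.75 to -0.09) was not called (limma adjusted p 0.461; two-sided exact permutation p = 0.1, the smallest possible). The log2 fold change was -0.06 (interval -0.60 to 0.48) on recovered reads scaled by their median ratio, and the groups overlapped on CPM of those reads. After removal of GC and length trends from the reads it was -0.22 (interval -0.59 to 0.15). The deposited scale gave between 4.38 and 9.59 units per Kdm6a read in tamoxifen libraries and between 5.12 and 21.8 in untreated ones. The highest was in untreated replicate 3, as for every measured enzyme gene.

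Kdm6b is known as an inducible gene of inflammatory and differentiation signals. It lies on chromosome 11 from 69398508 to 69413675 and had 1127, 3511 and 1070 in tamoxifen against 1439, 895 and 1291 in untreated libraries. Tamoxifen replicate 2 stood at more than the other 5 libraries, while the other tamoxifen libraries lay inside the untreated range. The high value rested on 134 reads, where the other 5 libraries had 34 to 83. Its log2 fold change of 0.45 had the widest interval of the 9 genes, from -0.73 to 1.63, and was -0.11 without tamoxifen replicate 2.

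The H3K4 demethylase genes both had lower mean values after tamoxifen on the deposited scale, without a call, and on plain CPM Kdm5a lay above 0. Kdm5a (RBP2, chromosome 6, 120364124 to 120444574) had 5167, 3348 and 3153 in tamoxifen and 3893, 6257 and 5205 in untreated libraries. Tamoxifen replicate 1 lay within the untreated range and the other tamoxifen libraries below it. It stood at -0.41 on the log2 scale (interval -1.02 to 0.21, limma adjusted p 0.683) and at -0.15 on recovered reads scaled by their median ratio. Kdm5b (PLU-1, chromosome 1, 134560171 to 134635285), a demethylase gene active in embryonic stem cells, had 8914, 12281 and 9255 in tamoxifen and 10413, 18684 and 14421 in untreated libraries. Only tamoxifen replicate 2 reached the untreated range, above untreated replicate 1. The mean was 10150 ± 1853 after tamoxifen and 14506 ± 4136 without it (SD, n = 3 each), or 70.0% of the untreated mean. On the log2 scale it differed by -0.49 (interval -1.08 to 0.10, limma adjusted p 0.592). It was -0.39 (interval -0.84 to 0.06) on recovered reads scaled by their median ratio and -0.56 (interval -0.98 to -0.14, limma adjusted p 0.329) once GC and length trends were taken out.

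**Figure D2:**
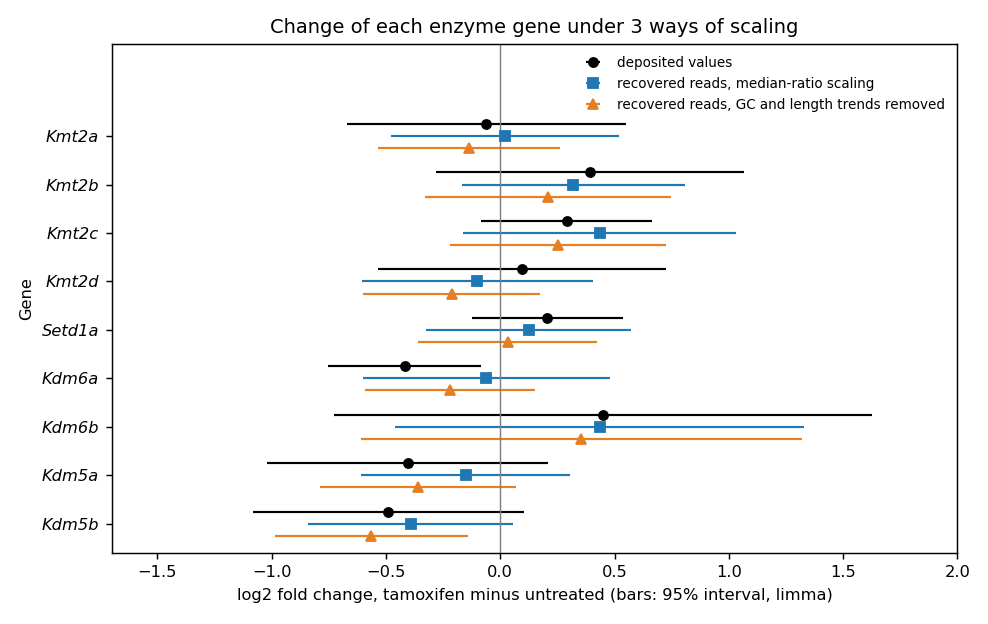
log2 fold changes, tamoxifen minus untreated, of the 9 genes with 95% intervals from limma, on the deposited values (black circles), on recovered reads scaled by their median ratio (blue squares) and on reads corrected for GC and length trends (orange triangles). Kmt2a and Kmt2d change sign between the scalings, Kdm6a moves from -0.42 to -0.06 and -0.22, and Kdm5b stays between -0.56 and -0.39.

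These values depended in part on the scaling of the libraries. Plain CPM, recovered reads scaled to a library total of 1000000, moved the median of all genes to 0.25 on the log2 scale, and on that scale Kmt2a (0.29), Kdm6a (0.20) and Kdm5a (0.11) lay above 0, the last 2 below that median. There 0 of 9 members were called, against 0.0344% of all genes, and 0 had an unadjusted p under 0.05, against 6.92%. The reads scaled by their median ratio left the median of all genes at -0.01, with 0 of 9 members called against 0.0402% of all genes, and 0 of 9 at an unadjusted p under 0.05 against 7.63%. Corrected for GC and length trends, 0 of 9 were called, against 0.144% of 16000 genes, and 1 (Kdm5b) had an unadjusted p under 0.05, against 10.8%. Kmt2b, Kmt2c, Setd1a and Kdm6b were above 0 and Kdm5b below 0 on all 4 scales.

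Levels of different genes were compared per length, as RPKM, the CPM of recovered reads divided by kilobases of exon. Kdm5b stood highest, with 13.0, 21.3 and 17.1 in tamoxifen and 21.9, 20.8 and 13.6 in untreated libraries. Kdm5a followed, with 8.37, 10.5 and 8.39 in tamoxifen and 12.3, 9.10 and 5.22 in untreated libraries, below Kdm5b in 6 of 6 libraries. The H3K4 demethylases thus lay above every methyltransferase in the mean over 6 libraries. Next came Kdm6a (means of 6.65 ± 2.61 in tamoxifen and 6.01 ± 3.21 in untreated) and Kmt2c (6.96 ± 2.86 in tamoxifen and 4.56 ± 2.77 in untreated), with SD and n = 3 here and below. Kmt2b averaged 5.22 ± 1.71 in tamoxifen and 3.50 ± 1.23 in untreated libraries, and Setd1a 4.48 ± 1.14 in tamoxifen and 3.39 ± 0.714 in untreated libraries.

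Kdm6b averaged 4.12 ± 3.60 RPKM in tamoxifen and 2.01 ± 0.363 in untreated libraries (SD, n = 3 each), with 8.25 in tamoxifen replicate 2. Kmt2a averaged 3.05 ± 1.19 in tamoxifen and 2.41 ± 0.557 in untreated libraries, and Kmt2d, with 2.05 ± 0.559 in tamoxifen and 1.81 ± 0.474 in untreated libraries, stood lowest. Of the 8 neighbouring pairs in this order, only Kdm5b and Kdm5a had ranges apart in both groups. Setd1a and Kdm6b were apart in the untreated libraries alone, and the other 6 overlapped in both groups. Within libraries Kdm5a lay above Kdm6a and Kmt2a above Kmt2d in 6 of 6, while Kdm6b lay above Kmt2a in 1 of 6. With the longest transcript in place of the exon union the order was the same. On deposited values per kilobase, Kdm5b and Kdm5a again came first and second and Kmt2a came last, with Kmt2b and then Kdm6b next after Kdm5a.

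**Figure D3:**
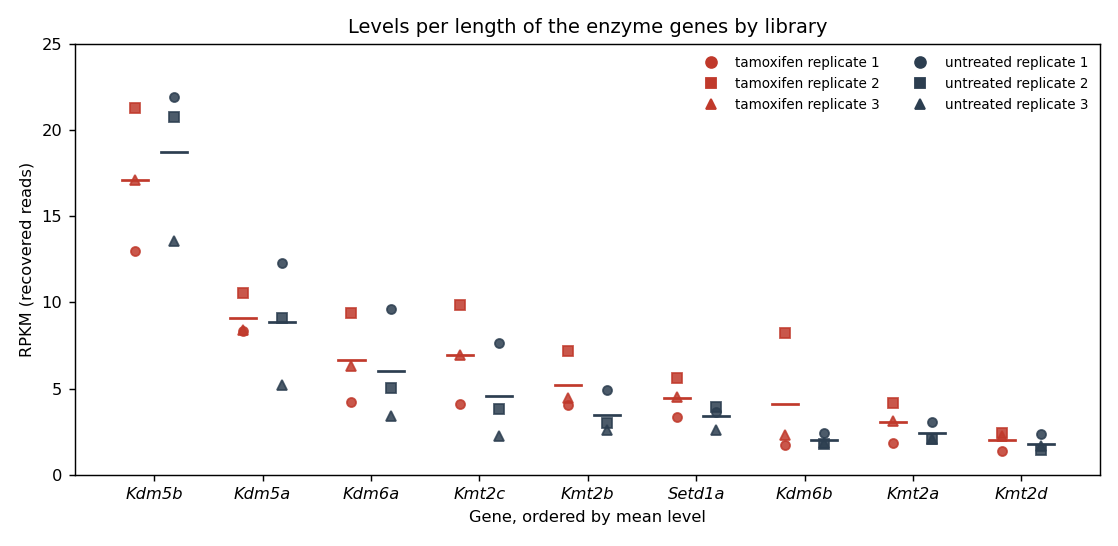
RPKM of recovered reads for the 9 genes in each library, ordered by the mean over 6 libraries, tamoxifen (red) left of untreated (dark), bars at group means. Kdm5b lies at 13.0 to 21.9 in all 6 libraries and Kmt2d at 1.41 to 2.45.

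Paralogous enzymes were compared by their ratio within each library, which does not depend on the scaling of the library as a whole. On deposited values the ratio does depend on the value carried by a read of each gene, and no ratio was corrected for length. The pairs were Kmt2a/Kmt2b, Kmt2c/Kmt2d, Kdm6a/Kdm6b and Kdm5a/Kdm5b, and Setd1a had no measured partner. In none of the 4 did the groups lie apart. The Kmt2a value was 0.216, 0.300 and 0.379 of the Kmt2b value in tamoxifen and 0.274, 0.447 and 0.513 in untreated libraries. The mean log2 ratio differed by -0.45 (two-sided exact permutation p = 0.3, adjusted over 4 pairs 0.6). The Kmt2c to Kmt2d ratio was 1.81, 1.77 and 2.03 in tamoxifen, within the untreated values of 1.33, 2.53 and 1.29, a log2 difference of 0.20 (exact permutation p = 0.6, adjusted 0.8). With 1 library left out, the Kmt2a/Kmt2b difference lay between -0.72 (without untreated replicate 1) and -0.24 (without tamoxifen replicate 1). That of Kmt2c/Kmt2d lay between 0.02 (without untreated replicate 3) and 0.51 (without untreated replicate 2; exact permutation p = 0.1, the smallest possible).

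For the demethylases, Kdm6a was at 1.16, 0.405 and 1.11 times Kdm6b in tamoxifen and at 1.10, 2.24 and 1.28 times in untreated libraries. The log2 difference was -0.87 (exact permutation p = 0.3, adjusted 0.6), and -0.37 without tamoxifen replicate 2. Kdm5a was at 0.580, 0.273 and 0.341 of Kdm5b in tamoxifen and at 0.374, 0.335 and 0.361 in untreated libraries. The untreated libraries lay close together and the tamoxifen libraries on both sides of them. The log2 difference was 0.08 (exact permutation p = 0.9, adjusted 0.9), and -0.22 without tamoxifen replicate 1. On recovered reads the 4 differences were -0.30, 0.53, -0.50 and 0.24 for the pairs as listed above, with exact permutation p between 0.3 and 0.4. The ratios of reads (0.5 added) also differed in level. Kmt2a/Kmt2b was 0.786, 1.01 and 1.23 in tamoxifen and 1.08, 1.21 and 1.39 in untreated libraries. Kdm6a/Kdm6b was 2.87, 1.37 and 3.25 in tamoxifen and 4.74, 3.43 and 2.22 in untreated libraries. Over the 6 libraries Kmt2c/Kmt2d ran from 1.38 to 4.07 and Kdm5a/Kdm5b from 0.330 to 0.552.

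**Figure D4:**
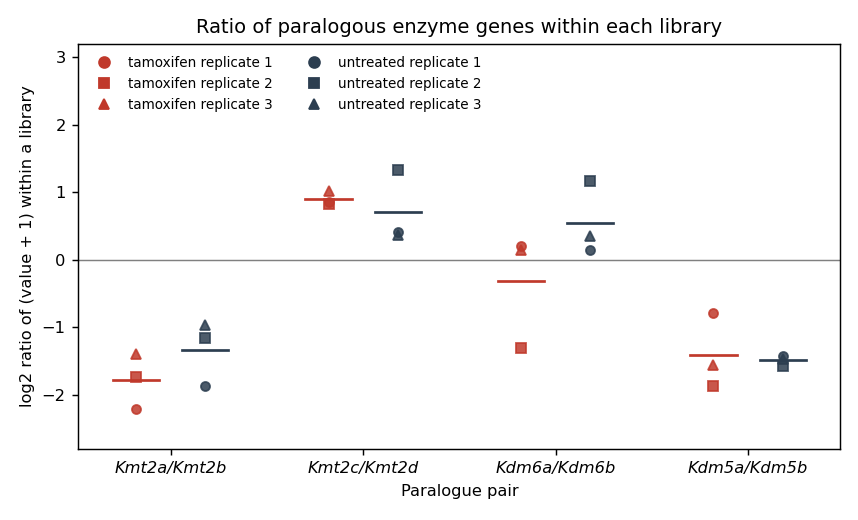
log2 ratio of (value + 1) of each paralogue pair within a library, tamoxifen (red) left of untreated (dark), with a symbol per replicate and a bar at the group mean. The groups overlap in all 4 pairs, and the Kdm6a/Kdm6b ratio of tamoxifen replicate 2 (-1.30) lies below the other 5 libraries.

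The KMT2 and SETD1 enzymes work in COMPASS complexes that share the core subunits WDR5, RBBP5, ASH2L and DPY30. Of the 16 genes listed for subunits and associated factors, all were tested and 0 were called in either direction by limma, against the 0.195% above. At an unadjusted p under 0.05 there were 2 of 16, Pagr1a and Psip1, against 9.34% of all genes. With GC and length trends removed there were 4 (Pagr1a, Psip1, Ash2l and Wdr82), against 10.8%, and on reads scaled by their median ratio 2 (Pagr1a and Ncoa6), against 7.63%. On the deposited values 4 were above 0 and 12 below, with a median of -0.11 beside -0.00375 for all genes. Groups lay apart at 2, both with tamoxifen below, as at 7.33% of all genes. The count was 5 and 11 on reads scaled by their median ratio, 4 and 12 with GC and length trends removed (median -0.21), and 9 and 7 on plain CPM, where the median was 0.07 beside 0.25 for all genes. The core subunit genes had log2 fold changes of -0.16 for Wdr5, -0.16 for Rbbp5, -0.02 for Ash2l and -0.14 for Dpy30.

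Pagr1a encodes PA1, a subunit of the KMT2C and KMT2D complexes. It had 943, 1099 and 1080 in tamoxifen and 1401, 1771 and 1526 in untreated libraries, without overlap. It stood at -0.59 on the log2 scale (interval -0.92 to -0.26, limma adjusted p 0.294), and at -0.68 on recovered reads scaled by their median ratio. Psip1 encodes LEDGF, which tethers the menin and KMT2A complex to chromatin. It had 944, 711 and 760 in tamoxifen and 1188, 1090 and 1167 in untreated libraries. The log2 fold change was -0.52 (interval -0.88 to -0.17, limma adjusted p 0.370) and -0.33 on reads scaled by their median ratio. On CPM of recovered reads the groups overlapped at both genes, with log2 fold changes of -0.42 for Pagr1a and -0.06 for Psip1. Next by p were Ncoa6, another subunit of the KMT2C and KMT2D complexes, at 0.32, and Wdr82, a SETD1 subunit gene, at -0.14.

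A further list held 19 other chromatin enzyme genes: relatives of the members, methyltransferases, demethylases and acetyltransferases, of which several are known for other histone residues. Of the 19, 0 were called by limma, against 0.195% of all genes, and 0 had an unadjusted p under 0.05, against 9.34%. On the deposited values 5 were above 0 and 14 below, with a median of -0.13. The split was 9 and 10, with a median of -0.01, on reads scaled by their median ratio, 7 and 12 (median -0.14) with GC and length trends removed, and 17 and 2 on plain CPM. Groups lay apart at 2 of 19, Kmt2e and Kdm1a, with tamoxifen below, as at 7.33% of all genes. On CPM of recovered reads the groups overlapped at both, with log2 fold changes of 0.18 for Kmt2e and -0.0019 for Kdm1a. Kdm5d, a Y-linked relative of Kdm5a and Kdm5b and the gene of smallest p here, had 409, 360 and 322 in tamoxifen and 506, 584 and 407 in untreated libraries (log2 fold change -0.45). Uty, the Y-linked relative of Kdm6a, had 1002, 1470 and 1003 in tamoxifen and 1655, 1625 and 1264 in untreated libraries (-0.40). The log2 fold change of Uty was -0.02 on reads scaled by their median ratio, -0.23 with GC and length trends removed and 0.25 on plain CPM. Kdm5c, the X-linked relative of Kdm5d, stood at -0.13. Whether reads shared between Kdm6a and Uty or between Kdm5c and Kdm5d were counted for either is not given in the sources used here, so these values are uncertain. Kmt2e, an MLL-family gene, stood at -0.46 on the deposited values, with groups that did not overlap, and at -0.09 on reads scaled by their median ratio. Kdm2b, which links a variant PRC1 complex to CpG islands, stood at -0.24.

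**Figure D5:**
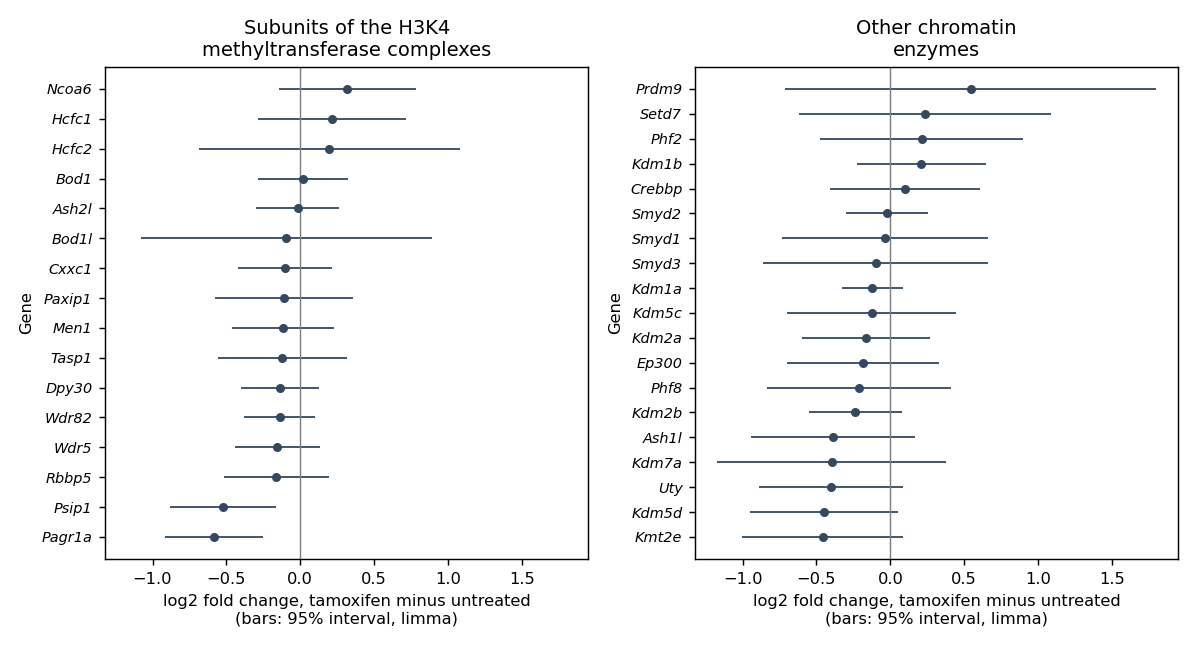
log2 fold changes on the deposited values, tamoxifen minus untreated, with 95% intervals from limma. Shown are 16 genes for subunits and associated factors of the H3K4 methyltransferase complexes (left) and 19 other chromatin enzyme genes (right). Only the intervals of Pagr1a and Psip1 leave out 0, and neither gene was called after adjustment.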

How the data were processed

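Total RNA of 6 libraries, 3 per group, was read from a table of normalized signal per gene made and deposited by the authors. TopHat2, bedtools, DESeq2 and the build mm9 are listed, per the submitters' processing notes, with no versions; annotation, strand setting and counting rule are not given in the sources used here. Each of the 100305 values above 0 equals a constant times k × (m + 0.1) / (k + 0.1) for whole numbers k and m, at a relative tolerance of 1e-14. The number k was taken as the recovered reads; 98.8% of values had 1 solution, and the rest took the solution nearest the gene's ratio m/k elsewhere, or nearest 1. The limma test fixed in the design was used on the deposited signal as it stands.

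The moderated limma test (version 3.58.1, R 4.3.3, expression trend) compared log2(value + 1) for genes with a mean of at least 10. The code was tested on simulated data. Alternatives used CPM of recovered reads (0.5 added), reads scaled by the median ratio (added after seeing the data), and reads with spline trends in GC content and transcript length removed. Symbols, coordinates and exon lengths came from GENCODE vM21 (GRCm38), for 20273 of 22933 identifiers; that build is not mm9, and no coordinate was converted. Other steps used numpy 2.4.6 and pandas 2.3.3 under Python 3.11.15, and figures matplotlib 3.10.9. The genes named are all members, Ezh2, the core COMPASS subunits, Kdm5c, Kdm5d and Uty, and the 4 smallest p per list; Kdm1a, Nanog, Zfp42 and Hand1 were named after their values were seen. The members and lists were chosen with earlier results of these data known.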

Additional observations from a re-analysis of the deposited data

How the results depend on the processing

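None of the 9 members, and none of the 35 further listed genes, was called under any of 16 alternatives. The number of genes called in the whole table was 34 (22 higher), 52 without a filter, 15 with at least 10 recovered reads, 6 (all higher) on CPM of reads, 7 (all higher) on reads scaled by their median ratio and 23 (22 higher) with GC and length trends removed; it was 66 to 103 with 1 library left out. Kmt2b, Kmt2c, Setd1a and Kdm5b kept their direction in all 16 alternatives, and with 1 library left out Kmt2b ran from 0.17 to 0.64, Kmt2c from 0.19 to 0.43, Setd1a from 0.12 to 0.26 and Kdm5b from -0.71 to -0.29. Kdm5b was -0.13 on CPM of reads. Changes to the filter and the replicate block leave every fold change as it was, so direction could not turn there. Other constants added before the log2 step hardly moved the fold changes. Over the same leave-outs Kdm6a ran from -0.48 to -0.32 and Kdm5a from -0.63 to -0.25. Kmt2a reversed on CPM of reads (0.29) and median-ratio reads (0.021), and ran from -0.25 to 0.15 with 1 library left out. Kmt2d reversed on median-ratio reads (-0.10) and with trends removed (-0.21), and ran from -0.17 to 0.26. Kdm6a (0.20) and Kdm5a (0.11) reversed on CPM of reads, and Kdm6b ran from -0.11 to 0.75. The Kdm5a/Kdm5b difference ran from -0.22 to 0.32. The causes were not tested. Deviations of same-numbered libraries correlated at -0.00091, -0.0209 and -0.0447. Differently numbered libraries were not compared, so whether the numbers pair the libraries is not settled. With the replicate number as a block limma called 0 genes. There 2 of 9 members had an unadjusted p under 0.05, beside 1393 of 17427 genes. Kdm6b rested on 34 to 134 reads per library, which limits its counting precision.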

Other observations

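The deposited value carried by 1 read differed among the enzyme genes. It was lowest for Kmt2a and highest for Kdm6b in each of the 6 libraries, while the order of the genes between them was not the same in all. The values were 5.99 and 24.0 in tamoxifen replicate 1, 7.52 and 26.2 in replicate 2 and 3.63 and 12.9 in replicate 3. In the untreated libraries it was 4.87 and 22.1, 4.13 and 12.8, and 13.1 and 38.0.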
